A study of Mus musculus with 18 samples.

Results

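The 10 genes described here are established markers of Kupffer cells and of macrophages in general: Clec4f, Vsig4, Cd5l, Marco, Adgre1, Cd68, Timd4, Csf1r, C1qa and C1qb. They were chosen by name, with earlier results of these data known, and all 10 were found among the 19057 genes of the liver expression table. Liver tissue of ICR mice aged 10 weeks was sequenced in 6 groups of 3 libraries, 18 in all. Con mice were the controls, A10 mice received 10 mg/kg of alginate oligosaccharide (AOS), HS mice received a high-fat diet and streptozotocin (STZ, a toxin of insulin-producing cells), and HS+A10 mice received diet, STZ and 10 mg/kg of AOS. Both recipient groups were on diet and STZ as well and were given small intestinal microbiota of other mice, from AOS-dosed donors in A10-FMT and from control donors in Con-FMT. The inoculum was pooled over donors, so the recipients of a group are not independent with respect to the donor microbiota, and A10 and HS+A10 are known from the sample labels alone.

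Kupffer cells are the resident macrophages of the liver. They sit inside the sinusoids, where they take up bacteria, debris and aged erythrocytes arriving with portal blood, and they depend on signals through the CSF1 receptor to survive. They are known to react to microbial products from the gut and to diet-induced fat accumulation, and cells lost from the niche can be replaced by monocytes that take on the resident program late, Timd4 last of all. Clec4f is a lectin nearly restricted to mouse Kupffer cells, Vsig4 is a complement receptor that captures bacteria, Cd5l is a secreted protein that blocks macrophage apoptosis, and Timd4 binds phosphatidylserine on dying cells. Marco is a class A scavenger receptor for bacteria and particles. Adgre1 (F4/80), Cd68 (a lysosomal glycoprotein) and Csf1r are found on most macrophages, and C1qa and C1qb encode chains of C1q, the recognition molecule of the classical complement pathway, which in liver comes mainly from macrophages.

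In the GRCm38 annotation (GENCODE M21), all 10 were protein-coding genes. C1qb (chr4:136880129-136886187), C1qc (chr4:136889804-136893065) and C1qa (chr4:136895917-136898803) lay side by side on the minus strand within 18675 bases. Marco (chr1:120474538-120505024) and Clec4f (chr6:83644542-83656187) were also on the minus strand. Cd5l was on chromosome 3, Cd68 and Timd4 were on chromosome 11, Adgre1 was on chromosome 17 and Vsig4 was on chromosome X. Of the RefSeq promoter windows of GRCm38.p6, none was at hand for C1qa and Adgre1, and none was used for Csf1r. Those of the other 7, each 300 bases long with 250 bases before and 50 after the start site, were used. They were searched on both strands for GAGGAA, the core of a motif bound by the macrophage factor PU.1 (the product of Spi1), and for the longer GAGGAAGT, which contains it. The core was found in 5 of these 7 (Marco, Vsig4, Cd5l, Cd68 and C1qb) and not in the windows of Clec4f and Timd4, and 28.3% of all 32851 windows held it. GAGGAAGT was found in none of the 7, against 3.2% of all windows, while the window of C1qc held it once. The 250 bases before the start site are printed below for 3 members that carry the results: Marco, which varied most, C1qb, from the complement trio, and Clec4f, the most Kupffer cell-specific member, as an example without a match. Capitals mark GAGGAA, and all 3 are read along the gene, on the minus strand.
Marco (chr1:120505025-120505274): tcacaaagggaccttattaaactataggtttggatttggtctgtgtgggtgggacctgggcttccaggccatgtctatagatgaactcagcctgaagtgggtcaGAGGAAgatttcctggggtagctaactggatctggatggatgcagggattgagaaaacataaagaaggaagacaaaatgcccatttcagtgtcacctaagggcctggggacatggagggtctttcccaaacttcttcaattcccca
C1qb (chr4:136886201-136886450): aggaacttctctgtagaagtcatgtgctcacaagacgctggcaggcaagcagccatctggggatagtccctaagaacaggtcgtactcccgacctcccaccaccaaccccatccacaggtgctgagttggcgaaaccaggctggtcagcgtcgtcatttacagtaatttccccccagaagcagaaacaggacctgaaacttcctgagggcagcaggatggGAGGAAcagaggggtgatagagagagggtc
Clec4f (chr6:83656117-83656366): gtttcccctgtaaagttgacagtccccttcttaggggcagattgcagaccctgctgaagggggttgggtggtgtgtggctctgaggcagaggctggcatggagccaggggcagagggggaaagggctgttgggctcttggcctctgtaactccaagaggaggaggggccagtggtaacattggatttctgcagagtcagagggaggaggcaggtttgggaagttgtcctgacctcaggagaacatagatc
These matches are descriptions of the letters only, and whether PU.1 binds there was not measured.

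Expression was given as RPKM, reads normalized to gene length and library size, a scale on which levels of different genes can be compared. Steps between the lowest values of 9 genes placed the depth of each library between 0.959 and 1.05 of the mean, and the annotated length of 7 of them gave an estimate of 11500000 reads per library (5380000 to 13100000 over these genes). On this estimate the lowest member value, 0.67 RPKM of Marco, stood for about 15 reads and a counting error of about 26%, and the lowest Clec4f value for about 390 reads and 5.1%. In 2 libraries a far larger share of the differing genes than elsewhere lay between the other 2 libraries of their group. Where these other 2 differed at least 1.5-fold, the third Con library was between them for 90.5% of 1010 genes. The third A10 library lay between its partners for 89.9% of 730 genes, against 31.5% to 70.9% in the other 16 libraries. For the members this held for 8 of 10 in the third Con library and for 6 of 10 in the third A10 library (and for 9 of 10 in the first HS library). Counts that rest on Con are therefore also given without both. These 2 libraries enter the other comparisons through the shared spread, so the count of A10-FMT versus HS is given without them too. Pancreatic enzyme genes (9 genes) summed to 18370 RPKM in the third Con-FMT library and to at most 2.4 RPKM in every other library. Nothing in the labels says that the libraries came from separate animals, and the p-values measure the spread between these libraries.

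All 10 members passed the filter value of 1 RPKM, which was applied to all libraries together and not to each group. In A10-FMT, Marco averaged 0.967 RPKM, below that value. Averaged over the 18 libraries, Cd5l (29.4 RPKM), C1qb (28.7 RPKM), C1qa (27.3 RPKM) and Clec4f (22.9 RPKM) were the most abundant, followed by Vsig4 (10.4 RPKM), Csf1r (6.38 RPKM), Cd68 (6.12 RPKM), Marco (3.76 RPKM), Adgre1 (2.25 RPKM) and Timd4 (2.16 RPKM). Clec4f was above Vsig4, and Vsig4 above Csf1r, in 18 of 18 libraries. C1qa was above Clec4f in 16 and Cd68 above Marco in 14. The remaining neighbours could not be separated by their spread: Cd5l was above C1qb in 7 of 18 libraries, C1qb above C1qa in 11, Csf1r above Cd68 in 10, Marco above Adgre1 in 11 and Adgre1 above Timd4 in 11. Marco had the widest range, 18.6-fold between the third A10-FMT library (0.67 RPKM) and the third HS library (12.4 RPKM), while the other 9 members spanned 2.42-fold (Clec4f) to 3.13-fold (Adgre1). For comparison, markers of T and NK cells (10 genes) summed to 1.99 to 5.09 RPKM and those of B and plasma cells (6 of 7 genes in the table) to 0.68 to 6.89 RPKM, and none of them reached a mean of 1 RPKM.

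**Figure D1:**
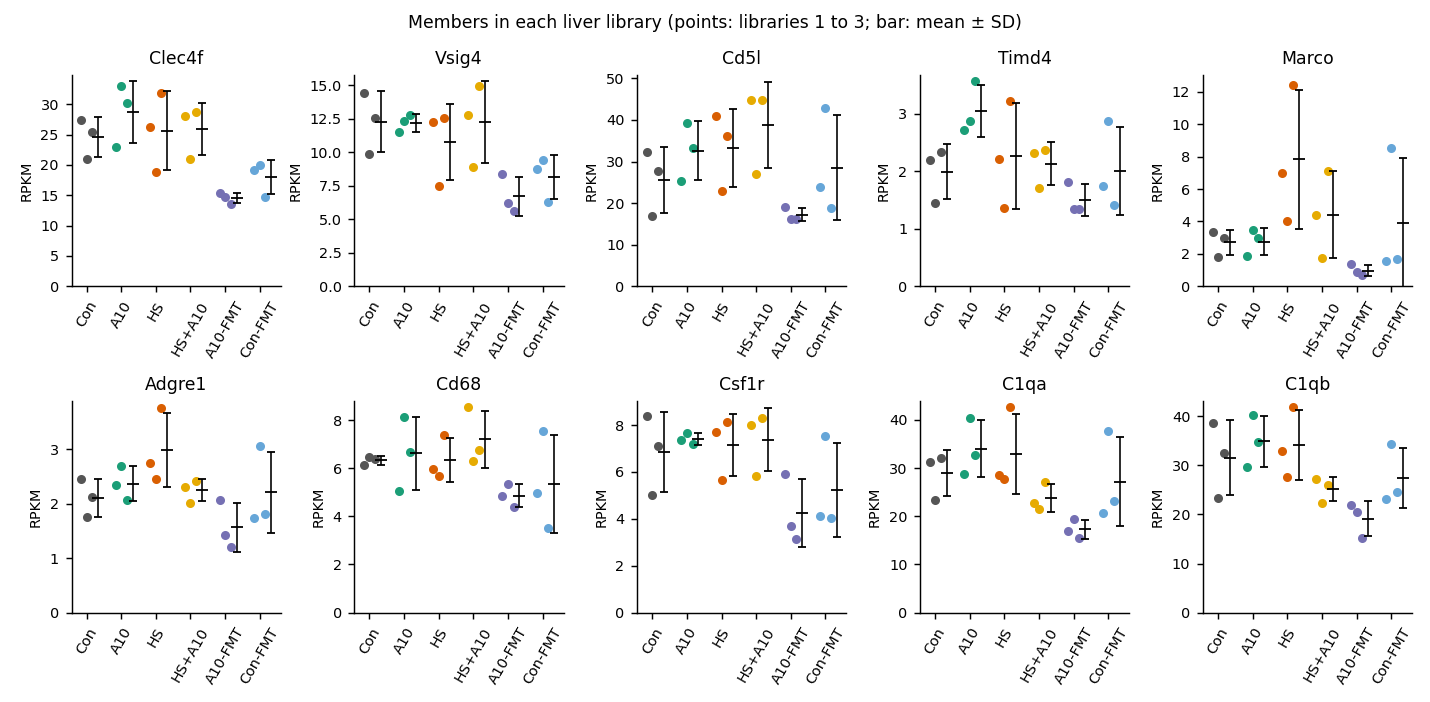
RPKM of each member (y axis, starting at 0) in the 6 groups (x axis), with 1 point per library and a bar for the mean ± SD of 3 libraries; lower SD bars below 0 are cut off. A10-FMT has the lowest mean in every panel, and Marco reached 12.4 RPKM in the third HS library and 8.54 RPKM in the second Con-FMT library.

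The lowest group mean was that of A10-FMT for all 10 members. Summed over the 10, the A10-FMT libraries held 97.5, 89.7 and 76.7 RPKM, below each of the other 15 libraries, whose sums ran from 100 RPKM in the third Con-FMT library to 200 RPKM in the third HS library. The group ranges were 111 to 167 RPKM in Con, 138 to 190 in A10, 124 to 200 in HS, 118 to 169 in HS+A10 and 100 to 174 in Con-FMT. The third A10-FMT library had the lowest of 18 values for 8 members and the next lowest for Cd5l and Cd68. Within groups the members also moved together from library to library: after the group means were removed, the Pearson correlation over the 18 libraries was positive in 45 of 45 pairs of members, with a median of 0.795 (0.474 to 0.913). These points share the libraries and their composition, and in bulk liver fewer macrophages and less RNA per macrophage cannot be told apart.

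Livers under diet and STZ were compared with untreated livers (HS versus Con) to ask what the disease model did to these markers. No member was called (limma, adjusted p under 0.05), where 17.7% of the 10204 tested genes were, and 2 of 10 had an unadjusted p under 0.05, Marco and Adgre1. Marco measured 7.01, 4.02 and 12.4 RPKM in HS against 3.34, 1.81 and 2.96 RPKM in Con. Every HS library thus lay above every Con library for Marco, the only member without overlap in this comparison, which 32.6% of tested genes shared in the upward direction. The fitted difference was 1.16 ± 0.48 (SE) on the log2(RPKM + 1) scale, with an adjusted p of 0.0977, which ran from 0.0401 to 0.306 over the alternative settings. Without the second Con-FMT library, which enters only through the shared spread, the adjusted p of Marco was 0.0401, and without the third HS library its difference was 0.80.

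Adgre1 measured 2.74, 2.46 and 3.76 RPKM in HS and 2.46, 1.76 and 2.12 RPKM in Con, a difference of 0.35 ± 0.16 (adjusted p = 0.144). For Cd5l it was 0.37 ± 0.30 (adjusted p = 0.404), and the remaining 7 members lay between −0.19 and 0.17. The median over the 10 was 0.11, next to 0.14 for all tested genes, and the count called was also 0 without the third Con and the third A10 libraries. The 95% intervals of these 7 reached from −0.64 to 0.61, and differences within these bounds could not be resolved. Clec4f, for example, averaged 25.7 ± 6.51 RPKM in HS and 24.6 ± 3.28 RPKM in Con (SD, n = 3).

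**Figure D2:**
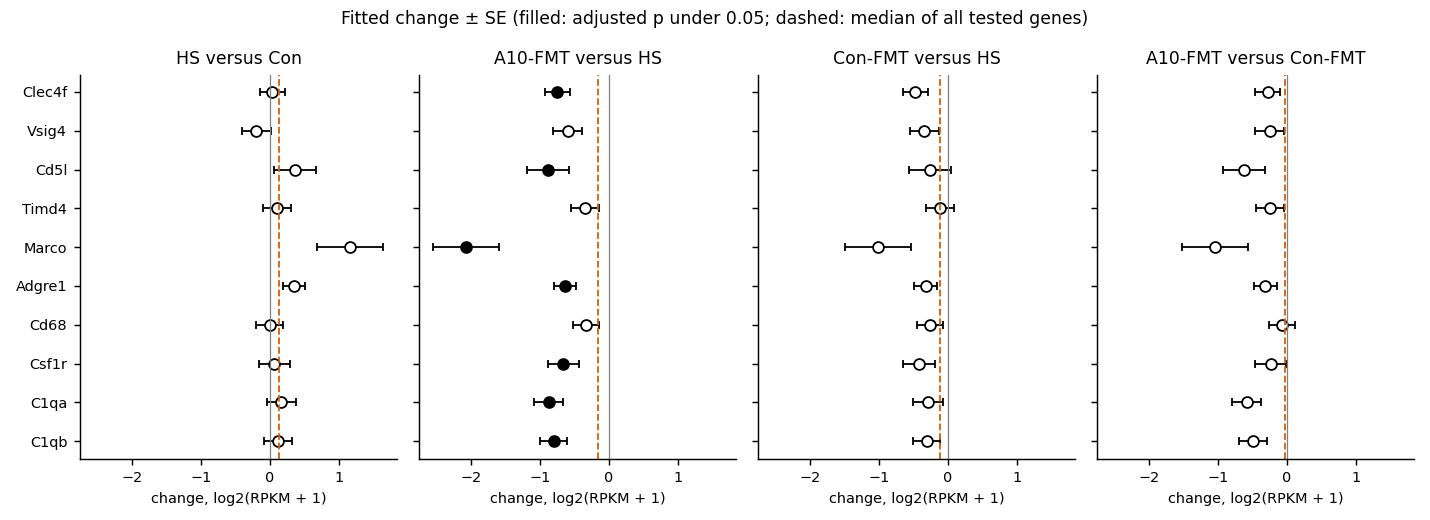
Fitted difference on the log2(RPKM + 1) scale (x axis) with its SE for each member (y axis) in 4 comparisons; filled points have an adjusted p under 0.05 and the dashed line is the median of all tested genes. All 7 filled points are in A10-FMT versus HS, where every member lies to the left of the dashed line at −0.16.

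Recipients of microbiota from AOS-dosed donors were compared with HS (A10-FMT versus HS), which asks whether the transplantation altered the diseased liver. Of the 10 members, 7 were called lower, where 21% of tested genes were called lower and 23.1% in either direction, and all 10 had a difference below 0. The median over the members was −0.70, next to −0.16 for all tested genes, of which 78% were below 0. Without overlap between the groups, 7 members were lower, as were 32.8% of tested genes.

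Among the Kupffer cell genes, Clec4f measured 15.3, 14.7 and 13.6 RPKM in A10-FMT and 26.3, 18.9 and 31.9 RPKM in HS, and fell by 0.75 ± 0.18 on the log2(RPKM + 1) scale (adjusted p = 0.0101). The ratio of the HS mean to the A10-FMT mean was 1.76, and the A10-FMT libraries were closely grouped. Cd5l fell by 0.88 ± 0.30 (adjusted p = 0.0488), from 41.0, 22.8 and 36.1 RPKM in HS to 19.0, 16.2 and 16.3 RPKM. The groups did not overlap for either gene. Vsig4 was 8.35, 6.19 and 5.58 RPKM in A10-FMT against 12.3, 7.47 and 12.5 RPKM in HS, where the second HS library lay below the first A10-FMT library, and its difference of −0.59 ± 0.21 missed the threshold (adjusted p = 0.0532). Timd4, the marker acquired last by monocytes that replace resident cells, was 1.82, 1.35 and 1.34 RPKM against 2.22, 1.37 and 3.22 RPKM (−0.35 ± 0.20, adjusted p = 0.211), and its groups overlapped.

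Marco had the largest difference of the 10. It measured 1.37, 0.86 and 0.67 RPKM in A10-FMT and 7.01, 4.02 and 12.4 RPKM in HS, a ratio of means of 8.09, and fell by 2.07 ± 0.48 on the log2(RPKM + 1) scale (adjusted p = 0.00796). All 3 A10-FMT values also lay under the lowest Con value of 1.81 RPKM. Their mean, 0.967 RPKM, was under the filter value of 1 RPKM, and the lowest stood for about 15 reads by the estimate above.

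Of the general macrophage genes, Adgre1 fell by 0.64 ± 0.16 (adjusted p = 0.0132), with 2.06, 1.43 and 1.20 RPKM in A10-FMT and 2.74, 2.46 and 3.76 RPKM in HS, without overlap. Csf1r, the receptor that Kupffer cells need to survive, was 5.91, 3.69 and 3.15 RPKM against 7.69, 5.65 and 8.13 RPKM. It was called at −0.66 ± 0.23 (adjusted p = 0.0479) although the first A10-FMT library lay above the second HS library. Cd68 was 4.83, 5.35 and 4.38 RPKM against 5.98, 5.69 and 7.40 RPKM, separate but with a small difference of −0.33 ± 0.19 (adjusted p = 0.214). The C1q chains moved alike: C1qa was 16.9, 19.4 and 15.4 RPKM against 28.5, 27.6 and 42.6 RPKM and fell by 0.87 ± 0.21 (adjusted p = 0.00996). For C1qb the values were 21.8, 20.4 and 15.1 RPKM against 33.0, 27.6 and 41.9 RPKM, a decrease of 0.80 ± 0.20 (adjusted p = 0.012). C1qc, the third chain and no member, fell by 0.80 ± 0.22 (adjusted p = 0.0173).

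These calls depended on how libraries were scaled to each other. RPKM of most genes was lower in A10-FMT than in HS, and after the libraries were brought to a common median, which moved the median of all genes from −0.16 to 0.00, the call remained for Marco alone (−1.94 ± 0.49, adjusted p = 0.0218), with 5.06% of genes called lower. Of all tested genes 2358 were called as deposited, 2145 of them lower, whereas median scaling left 1155 with 516 lower and quantile normalization 1114 with 541 lower. After quantile normalization it was again Marco alone (−1.94 ± 0.49, adjusted p = 0.0212), with 5.3% called lower. The other 9 members kept differences below 0 under both scalings, from −0.16 for Cd68 to −0.72 for Cd5l, and the median over the 10 was −0.54 under each. The unadjusted p of Clec4f after median scaling was 0.0132 and its adjusted p 0.0829, and C1qa (0.0683), Adgre1 (0.0656) and C1qb (0.0808) had adjusted p of similar size.

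**Figure D3:**
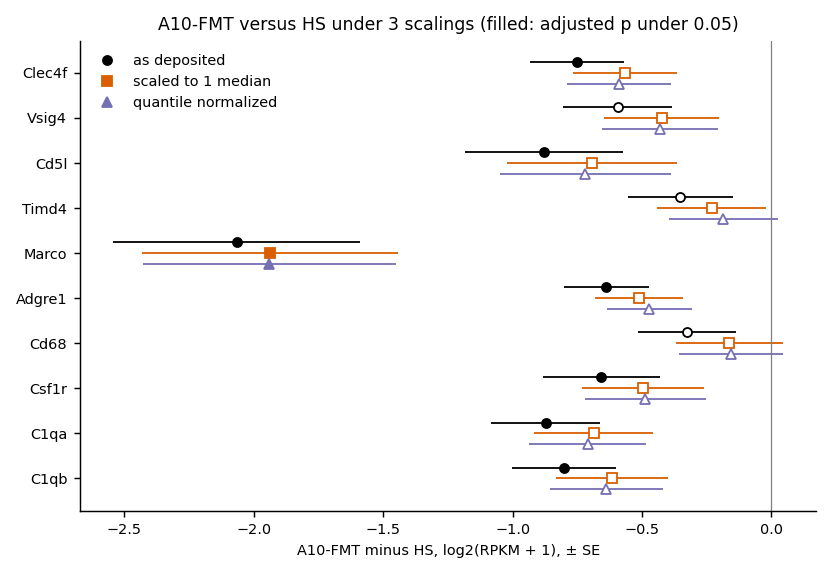
Difference between A10-FMT and HS on the log2(RPKM + 1) scale with its SE (x axis) for each member (y axis), from values as deposited (circles), scaled to the same median (squares) and quantile normalized (triangles); filled symbols have an adjusted p under 0.05. Marco is filled under all 3, at −2.07, −1.94 and −1.94, while the 6 other members filled as deposited are open under both scalings.

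The number of members called also rested on single libraries. Without the third HS library, which had the highest sum of members of all libraries (200 RPKM), 3 members were called (Clec4f, Marco and C1qa), and the same 3 were called without the third A10-FMT library. Without the second HS library 8 were called, Vsig4 included (adjusted p = 0.0202). Marco was called in every one of these fits, with adjusted p between 0.00233 and 0.0378, and at the study's own threshold (0.001 for the adjusted p, with a log2 ratio beyond 1 in size) none of the 10 was. Without both the third Con and the third A10 libraries, which enter only through the shared spread, 5 members were called.

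Clock genes also differed between A10-FMT and HS. Dbp, an output gene of the circadian clock, was 98.8, 48.8 and 86.2 RPKM in A10-FMT and 1.79, 2.22 and 1.17 RPKM in HS. HS+A10 and Con-FMT had Dbp values like those of A10-FMT, from 47.3 to 97.5 RPKM in HS+A10 and from 51.8 to 55.5 RPKM in Con-FMT. Their member sums were 118 to 169 and 100 to 174 RPKM. Dbp was also low in Con (0.58 to 0.68 RPKM) and in A10 (0.36 to 3.41 RPKM). Comparisons of HS+A10, A10-FMT or Con-FMT with HS or Con thus all carried a difference in Dbp. Sinusoidal endothelial markers (10 genes, all tested) summed to 62.5 to 75.9 RPKM in A10-FMT and 78.8 to 101 RPKM in HS, stellate cell markers (10 genes, all tested) to 138 to 167 against 184 to 247 RPKM and hepatocyte markers (7 genes, all tested) to 40160 to 50770 against 37670 to 43270 RPKM. Dendritic cell genes summed to 37.2 to 54.2 against 64.3 to 96.2 RPKM, mostly from Cd74 and H2-Ab1, which are not restricted to dendritic cells. Cholangiocyte genes (4 genes, 2 tested) summed to 2.09 to 2.64 against 2.98 to 4.86 RPKM. Erythroid genes (4 genes) summed to 1134 to 2025 RPKM in A10-FMT and to 2860 to 9784 RPKM in HS. T and NK cell markers summed to 2.72 to 3.34 RPKM in A10-FMT and 3.39 to 5.09 RPKM in HS. Sums overlapped for B and plasma cells (1.57 to 2.24 against 1.73 to 2.87 RPKM) and neutrophils (1.2 to 2.48 against 2.22 to 6.4 RPKM). Endothelial, stellate, dendritic, cholangiocyte, erythroid and T and NK cell sums were thus lower in A10-FMT without overlap, as were 32.8% of single tested genes. The part of these in the members' differences was not tested.

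Lists of other macrophage genes were counted in A10-FMT versus HS against the 21% of all tested genes called lower and their median of −0.16. Of 20 tested general macrophage genes, 8 were called lower and 1 higher, and 19 were below 0 with a median of −0.49. Lgmn, a lysosomal protease, fell by 0.70 ± 0.12 (adjusted p = 0.00193) and the scavenger receptor gene Msr1 by 0.61 ± 0.15 (adjusted p = 0.0111). Of 11 tested Kupffer cell genes other than the members, 2 were called lower, no larger a share than among all genes, with a median of −0.47: Hmox1, the heme-degrading enzyme, fell by 0.88 ± 0.20 (adjusted p = 0.00798) and Cfp, which encodes properdin, by 0.59 ± 0.17 (adjusted p = 0.0234). Among 7 tested lipid-associated macrophage genes 5 were called lower and all 7 were below 0, led by Cd9 (−1.33 ± 0.16, adjusted p = 0.000282), Lpl (−1.06 ± 0.17, adjusted p = 0.00128) and Ctsd (−0.29 ± 0.07, adjusted p = 0.0102), none of which is restricted to macrophages. Trem2 and Gpnmb, which define such cells, stayed at or below 0.67 RPKM in every library and were not tested.

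Of the 12 monocyte genes 4 could be tested and none was called, and of the 11 cytokine and mediator genes 3 could be tested, of which Il1b fell by 0.55 ± 0.16 (adjusted p = 0.0204), from 1.35, 1.01 and 1.49 RPKM in HS to 0.51, 0.72 and 0.44 RPKM. The A10-FMT mean of Il1b, 0.557 RPKM, was under the filter value of 1 RPKM, and its counting error was not estimated. Among ligands and partners, 2 of 6 tested genes were called lower, C1qc (above) and C3, the central complement component made mostly by hepatocytes, which fell by 0.51 ± 0.12 (adjusted p = 0.00996). Csf1, a ligand of the CSF1 receptor, was 3.01, 2.61 and 2.05 RPKM in A10-FMT and 2.72, 2.94 and 3.89 RPKM in HS (−0.23 ± 0.12, adjusted p = 0.16). Il34, the other ligand, was 0.85 to 1.08 RPKM in A10-FMT and 0.75 to 1.07 RPKM in HS and was below the filter. Nr1h3, which encodes the liver X receptor alpha that maintains Kupffer cell identity but is expressed by hepatocytes too, was 39.6 to 42.1 RPKM against 42.3 to 50.5 RPKM (−0.20 ± 0.08, adjusted p = 0.0767).

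Con-FMT versus HS asks what the transplantation did without AOS in the donor. No member was called, where 23.6% of tested genes were, and all 10 differences were below 0, with a median of −0.32 next to −0.12 for all tested genes. The members nearest to the threshold were Clec4f (−0.47 ± 0.18, adjusted p = 0.0714), with 19.1, 20.04 and 14.8 RPKM in Con-FMT, and Marco (−1.02 ± 0.48, adjusted p = 0.137), with 1.54, 8.54 and 1.69 RPKM. The second Con-FMT library stood apart from its partners for most members: C1qa was 20.6, 37.7 and 23.1 RPKM, Cd5l 23.9, 42.9 and 18.9 RPKM and Adgre1 1.74, 3.07 and 1.82 RPKM. The same library had the highest sum of dendritic cell genes (7 genes, 3 tested), 177 RPKM against 37.2 to 96.2 RPKM in all others. That sum was mostly Cd74 (122 RPKM) and H2-Ab1 (53.7 RPKM), which are not restricted to dendritic cells. It also had the highest sums of monocyte genes (29.4 RPKM) and of cytokines (24.2 RPKM). Without the second Con-FMT library 3 members were called, Marco (−1.64, adjusted p = 0.0157), Adgre1 (−0.51, adjusted p = 0.0372) and Csf1r (−0.67, adjusted p = 0.0468). Without the second HS library Clec4f alone was called (−0.67, adjusted p = 0.0173).

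Among the other macrophage genes, 4 of 20 were called lower than in HS and 1 higher, a share near the 23.6% of all tested genes, with a median of −0.25 next to −0.12. Maf (−0.69 ± 0.12, adjusted p = 0.000872), Msr1 (−0.63 ± 0.15, adjusted p = 0.0084) and Mertk (−0.40 ± 0.10, adjusted p = 0.0108), a receptor for dying cells, were the most significant of these, and Irf8 was higher (0.34 ± 0.12, adjusted p = 0.0452). In the Kupffer cell list 1 of 11 was called in each direction, Id3 lower (−0.91 ± 0.24, adjusted p = 0.0126) and C6, also a product of hepatocytes, higher (0.70 ± 0.23, adjusted p = 0.0345). Of 7 lipid-associated genes 3 were called lower, Cd9 (−0.89 ± 0.16, adjusted p = 0.0016), Lpl (−0.69 ± 0.17, adjusted p = 0.0106) and Cd63 (−1.06 ± 0.32, adjusted p = 0.0271). The groups overlapped for Cd63, at 6.18, 5.62 and 8.37 RPKM in Con-FMT and 16.77, 27.65 and 6.85 RPKM in HS. The monocyte chemoattractant Ccl2 was 2.06, 8.85 and 3.25 RPKM in Con-FMT and 0.29, 0.59 and 1.48 RPKM in HS. It reached the filter on low values only through Con-FMT and had to differ there, so its values are given without a test, and neither of the other two tested cytokine genes was called. None of 4 monocyte genes and none of 6 ligands and partners were called (C1qc −0.29, Csf1 0.11, C3 −0.06 and Nr1h3 −0.14).

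Both kinds of recipients were then compared directly (A10-FMT versus Con-FMT). No member was called, where 18.8% of tested genes were, and 3 had an unadjusted p under 0.05. All 10 were lower in A10-FMT, with a median of −0.30 next to −0.03 for all tested genes. C1qa (−0.58 ± 0.21, adjusted p = 0.0659) and C1qb (−0.49 ± 0.20, adjusted p = 0.101) were nearest, followed by Marco (−1.05 ± 0.48, adjusted p = 0.14) and Cd5l (−0.62 ± 0.30, adjusted p = 0.17). For Marco, C1qa and C1qb every A10-FMT library lay below every Con-FMT library, as it did for 19.4% of tested genes. The gap was small: the highest A10-FMT value of C1qa was 19.4 RPKM and the lowest Con-FMT value 20.6 RPKM. C1qa was called when the first Con-FMT library (adjusted p = 0.0372) or the third HS library (adjusted p = 0.047) was left out. Without the second Con-FMT library the differences shrank to −0.33 for C1qa (adjusted p = 0.271), −0.43 for Marco (adjusted p = 0.538) and −0.29 for Cd5l (adjusted p = 0.553).

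Of the cytokine genes Il1b was called lower in A10-FMT than in Con-FMT (−0.92 ± 0.16, adjusted p = 0.00104), with 0.51, 0.72 and 0.44 RPKM against 1.47, 2.38 and 2.02 RPKM. Its A10-FMT values all lay under the filter value of 1 RPKM, and their counting error was not estimated. Ccl2, which passed the filter through Con-FMT alone, was 0.19, 0.19 and 1.00 RPKM in A10-FMT. Hmox1 was lower by 1.43 ± 0.20 on the log2 scale (adjusted p = 0.000334), with 13.4, 11.1 and 7.78 RPKM in A10-FMT and 26.0, 37.9 and 27.8 RPKM in Con-FMT, and was the only Kupffer cell gene of 11 called. Of the 20 general macrophage genes Irf8 was called lower (−0.59 ± 0.12, adjusted p = 0.00295) and Maf higher (0.38 ± 0.12, adjusted p = 0.0335). None of 7 lipid-associated and none of 4 monocyte genes were called. Of the partners C3 was called lower (−0.45 ± 0.12, adjusted p = 0.02), while C1qc (−0.50 ± 0.22, adjusted p = 0.117), Csf1 (−0.34 ± 0.12, adjusted p = 0.0552) and Nr1h3 (−0.06 ± 0.08, adjusted p = 0.634) were not.

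A10-FMT was also set beside untreated livers, a comparison added after the values had been seen. Dbp differed here too, at 48.8 to 98.8 RPKM in A10-FMT and 0.58 to 0.68 RPKM in Con, and its part was not tested. Of the 10 members 4 were called lower, where 7.62% of tested genes were called lower and 14.3% in either direction, and all 10 were below 0 with a median of −0.64 next to −0.02 for all tested genes. Clec4f fell by 0.71 ± 0.18 (adjusted p = 0.0167) from 27.4, 21.0 and 25.4 RPKM in Con, and Vsig4 by 0.79 ± 0.21 (adjusted p = 0.0209) from 14.5, 9.86 and 12.6 RPKM. C1qa fell by 0.71 ± 0.21 (adjusted p = 0.0354) and C1qb by 0.68 ± 0.20 (adjusted p = 0.0334). Without overlap 6 members were lower, these 4 with Marco (−0.90 ± 0.48, adjusted p = 0.229) and Cd68 (−0.33 ± 0.19, adjusted p = 0.277), as were 17.7% of tested genes. Here another scaling did not matter for the count, which stayed at 4 after median scaling and after quantile normalization. It was 0 when the first Con, the third Con or the third A10-FMT library was left out, 2 without the second A10-FMT library, and 0 without both the third Con and the third A10 libraries, while the median of the members stayed between −0.79 and −0.49 in fits that left out 1 library. For Con-FMT versus Con, added likewise, no member was called, also without the third Con and the third A10 libraries, where 25.8% of tested genes were, and Clec4f (−0.43 ± 0.18, adjusted p = 0.0917) and Vsig4 (−0.54 ± 0.21, adjusted p = 0.0724) were the 2 members whose groups did not overlap, as did those of 16.8% of tested genes in that direction.

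In the other lists, A10-FMT versus Con gave 1 of 11 Kupffer cell genes lower (Cfp, −0.65 ± 0.17, adjusted p = 0.0193) and, of 20 macrophage genes, 1 higher and 2 lower, the latter Cd14 (−1.84 ± 0.45, adjusted p = 0.0128) and Msr1. Cd14, a coreceptor for lipopolysaccharide, was 17.4, 1.95 and 10.4 RPKM in Con and 1.30 to 1.41 RPKM in A10-FMT, so that its Con libraries differed widely. Of 7 lipid-associated genes 3 were lower (Lpl, Cd9 and Fabp5), of 3 cytokine genes Il1b was lower (−1.03 ± 0.16, adjusted p = 0.000792), and no monocyte gene or partner was called, C1qc (−0.62, adjusted p = 0.0689) and C3 (−0.37, adjusted p = 0.0571) included. Il1b again rested on a low A10-FMT mean of 0.557 RPKM. In Con-FMT versus Con, Hmox1 was higher (0.81 ± 0.20, adjusted p = 0.00868) and Id3 lower among Kupffer cell genes, 2 of 20 macrophage genes were higher, Irf8 among them, and Maf and Msr1 were lower, and Lpl and Cd9 were lower among lipid-associated genes. Ly6c2, a marker of inflammatory monocytes, was higher (1.35 ± 0.36, adjusted p = 0.0119), and Ccl2 was 0.09, 0.10 and 0.65 RPKM in Con. Of the 6 partners 3 were higher, Serping1, Csf1 (0.45 ± 0.12, adjusted p = 0.0116) and C1s1.

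HS+A10 versus HS and A10 versus Con ask what AOS given directly did with and without diet and STZ. In HS+A10 versus HS no member was called, where 7.32% of tested genes were, none had an unadjusted p under 0.05, and 5 lay on each side of 0 with a median of 0.00. Clec4f was 28.0, 21.0 and 28.75 RPKM in HS+A10, and its difference of 0.03 had a 95% interval from −0.36 to 0.42. C1qa (−0.43 ± 0.21, adjusted p = 0.218), C1qb (−0.41 ± 0.20, adjusted p = 0.22) and Adgre1 (−0.28 ± 0.16, adjusted p = 0.302) were lower without overlap, as were 15.7% of tested genes, with C1qa at 22.7, 21.6 and 27.1 RPKM. Marco was 4.37, 1.75 and 7.11 RPKM and overlapped with HS (−0.72 ± 0.48, adjusted p = 0.373). Of the other lists, Slc40a1 (0.56 ± 0.11, adjusted p = 0.00943), the iron exporter ferroportin, was called higher and Id3 (−0.95 ± 0.24, adjusted p = 0.0279) lower among 11 Kupffer cell genes, Mrc1 (0.50 ± 0.13, adjusted p = 0.0374) and Maf (0.40 ± 0.12, adjusted p = 0.0471) higher among 20 macrophage genes, Cd9 (−0.69 ± 0.16, adjusted p = 0.0219) lower among 7 lipid-associated genes and C3 (−0.45 ± 0.12, adjusted p = 0.0401) lower among 6 partners. None of 4 monocyte and none of 3 cytokine genes were called, and the partners C1qc (−0.26), Csf1 (−0.21) and Nr1h3 (−0.27, adjusted p = 0.0546) were not either. Mrc1 is also a gene of sinusoidal endothelium, whose markers summed to 106 to 141 RPKM in HS+A10, the highest of any group. The part of this in Mrc1 was not tested.

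In A10 versus Con no member was called, and 7 genes in all were, 0.0686% of those tested. All 10 were at or above 0, with a median of 0.14 next to 0.07 for all tested genes. Timd4, at 2.72, 2.88 and 3.57 RPKM against 2.19, 1.45 and 2.34 RPKM, was the only member without overlap, as were 19.6% of tested genes in the upward direction, and the only one with an unadjusted p under 0.05 (0.45 ± 0.20, adjusted p = 0.349). The effect of AOS under diet and STZ minus its effect without them was called for no member and for 1 gene in all, 0.0098% of those tested. Members lay between −0.74 (Marco) and 0.17 (Vsig4), and C1qa (−0.66 ± 0.30, adjusted p = 0.37) was the only one with an unadjusted p under 0.05. None of the 6 gene lists had a called gene in either comparison, and the partners C1qc (0.23), Csf1 (0.12), C3 (−0.09) and Nr1h3 (−0.05) were not called between A10 and Con. The third Con and the third A10 libraries both enter here, and the count was 0 without them as well.

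The lists other than the members, compared between HS and Con, gave 2 macrophage genes called higher of 20, Lgmn (0.41 ± 0.12, adjusted p = 0.0339) and Mertk (0.31 ± 0.10, adjusted p = 0.0474), and no Kupffer cell gene of 11, both below the 17.7% of all tested genes. Plac8 was called higher among 4 tested monocyte genes (0.63 ± 0.19, adjusted p = 0.0355), with 9.79, 11.35 and 11.45 RPKM in HS and 7.68, 5.90 and 6.53 RPKM in Con. Monocyte genes (12 genes) summed to 21.7 to 22.4 RPKM in HS and 10.6 to 14.6 RPKM in Con. Of 7 lipid-associated genes Cd63 was called higher (1.04 ± 0.32, adjusted p = 0.037) and Fabp5 lower (−1.53 ± 0.50, adjusted p = 0.0456), and of 3 cytokine genes Il1b was called lower (−0.47 ± 0.16, adjusted p = 0.0461). Cd63 was 16.77, 27.65 and 6.85 RPKM in HS and 7.69, 5.47 and 7.16 RPKM in Con, so its groups overlapped. Csf1 (0.34 ± 0.12, adjusted p = 0.0591), Nr1h3 (0.23 ± 0.08, adjusted p = 0.0574), C1qc (0.18 ± 0.22, adjusted p = 0.583) and C3 (0.14 ± 0.12, adjusted p = 0.437) were not called.

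Ratios between members within a library do not change when a library is scaled by a single factor. The C1q chains kept a nearly fixed proportion: C1qb over C1qa was 0.914 to 1.29 and C1qc over C1qa 0.783 to 1.14 over all 18 libraries. Vsig4 over Clec4f was also held within 0.373 to 0.544. Marco over Clec4f, by contrast, ranged from 0.0492 to 0.426. It was 0.213 to 0.390 in HS, which overlapped with 0.0833 to 0.247 in HS+A10 and lay above 0.0863 to 0.122 in Con, 0.0799 to 0.105 in A10 and 0.0492 to 0.0893 in A10-FMT, without overlap with Con, A10 or A10-FMT. The first Con-FMT library (0.0806) and the third (0.114) resembled Con and the second (0.426) was the highest of all. C1qa over Clec4f was lowest in HS+A10 (0.809 to 1.03), below 1.08 to 1.46 in HS, and Cd68 over Clec4f was highest by mean in A10-FMT (0.315 to 0.364), above 0.227 to 0.301 in HS. Adgre1 over Clec4f was 0.104 to 0.130 in HS and 0.0835 to 0.0898 in Con, also without overlap, but 0.0880 to 0.134 in A10-FMT. Vsig4 over Clec4f, at 0.393 to 0.467 in HS, lay below its 0.470 to 0.528 in Con. Ratios of the remaining members to Clec4f overlapped between HS and Con. None of these ratios was tested.

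**Figure D4:**
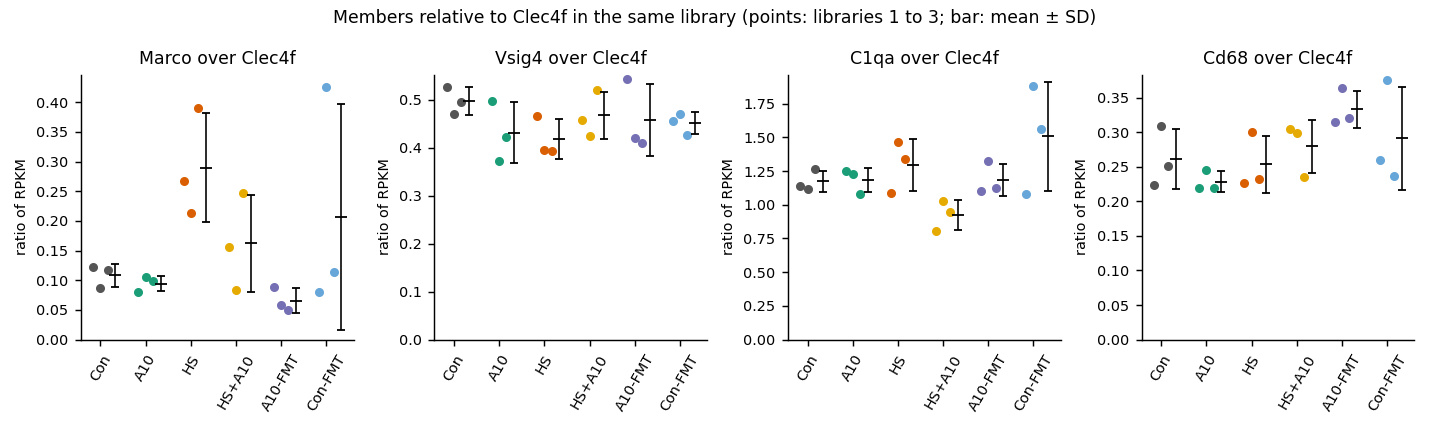
Ratio of the RPKM of 4 members to that of Clec4f in the same library (y axis, starting at 0) in the 6 groups (x axis), with 1 point per library and a bar for the mean ± SD of 3 libraries. Vsig4 stays between 0.373 and 0.544 everywhere, whereas Marco is at 0.213 to 0.390 in HS and at or below 0.122 in Con, A10 and A10-FMT.

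Genes with the pattern most like that of the members were found by the Pearson correlation of each tested gene with the mean of the 10 members, each scaled to unit SD, over the 18 libraries. The 10 highest were Sdc3 (0.978), a heparan sulfate proteoglycan, C1qc (0.919), Spi1 (0.906), Cfp (0.9), Fermt3 (0.890), which activates leukocyte integrins, Gbp2b (0.882), Adgre5 (0.875), Siglec1 (0.873), the macrophage sialoadhesin, Rac2 (0.868), a GTPase of blood cells, and Pld4 (0.862). Sdc3 was 6.66, 6.23 and 5.43 RPKM in A10-FMT and 6.75 to 12.1 RPKM in the other 15 libraries. Spi1, the gene of PU.1, was 2.66, 2.29 and 1.43 RPKM in A10-FMT and 3.64, 3.22 and 4.43 RPKM in HS. These 10 genes were chosen for following the mean of the members, which was lowest in A10-FMT. Lower values there were thus largely fixed by the choice and are given without a test. The points share their libraries and the composition of the tissue, and the correlations are given as descriptions.

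**Figure D5:**
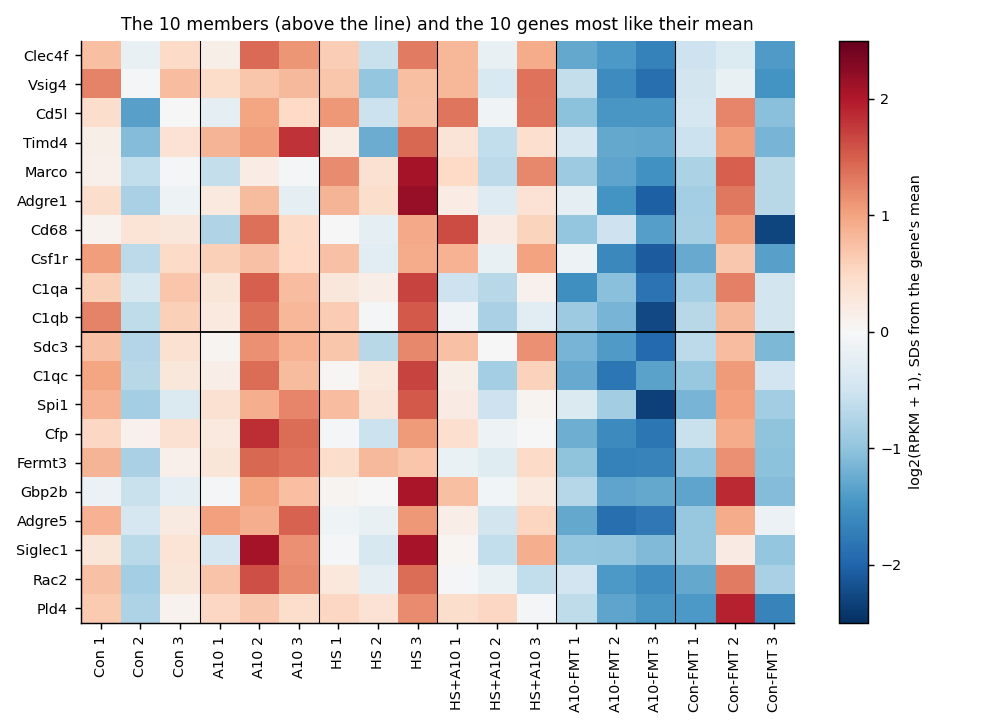
Level of each gene in each library, as log2(RPKM + 1) in SDs from the gene's own mean (colour), for the 10 members above the line and the 10 genes with the highest correlation with their mean below it (y axis), with the 18 libraries by group (x axis). The 3 A10-FMT libraries are blue throughout, and the third HS and the second A10 libraries are red throughout, while the second Con-FMT library is red except for Clec4f and Vsig4.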

How the data were processed

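The authors mapped liver RNA-seq reads to reference genes and deposited RPKM values with 2 decimals. The methods of the study name SOAPaligner, whereas the submitters' processing notes name Bowtie 0.12.2 and mm10, and the sources do not settle which made the values. The values were used as deposited on the log2(RPKM + 1) scale. The 10204 of 19057 genes that averaged 1 RPKM or more across the 18 libraries were tested with limma 3.58.1 (R 4.3.3), fitting each group's mean with a trended variance. P-values are two-sided and Benjamini-Hochberg adjusted over all tested genes, and a gene was called where its adjusted p was under 0.05. DEGseq, which the study used, was not run. Fold changes on this scale understate those of low genes. Positions and promoters came from GENCODE M21 and RefSeq (GRCm38), the build of mm10. The fitting code was tested on simulated data. Estimated depth limits low genes such as Marco by counting error.

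Members and gene lists were chosen with earlier results of these data known. Named are the 10 members, called list genes with the 3 smallest adjusted p per list, 5 fixed partners (C1qc, Csf1, Il34, C3 and Nr1h3) and the 10 genes most like the members. Trem2, Gpnmb and the libraries named as standing apart were chosen after their values were seen. Alternatives were the pseudocount (0.1), no filter or a mean of 5 RPKM, 2 scalings, a replicate block, fewer groups, no trend, the threshold of the study and leaving out each library. Same-numbered libraries were not treated as pairs in the main fit. The values of 1 gene in the list of general macrophage genes are not reported here, but the gene is included in the counts.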

Additional observations from a re-analysis of the deposited data

How the results depend on the processing

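Of the 7 planned comparisons, only A10-FMT versus HS had called members, and its count of 7 became 1 with median scaling, 1 with quantile normalization and 0 at the threshold of the study. It ranged from 3 (without the third HS or the third A10-FMT library) to 8 when 1 library was left out, and was 5 to 7 under the other settings. At a mean of at least 5 RPKM only 7 members could be tested, which removes Marco, Adgre1 and Timd4, and 5 were called. For A10-FMT versus Con the count of 4 was 1 without a filter, 0 at the threshold of the study, 0 without both the third Con and the third A10 libraries, and 0 to 4 with 1 library left out. With 1 library left out the count was 0 to 1 for HS versus Con, 0 to 3 for Con-FMT versus HS, 0 to 1 for A10-FMT versus Con-FMT and 0 to 1 for Con-FMT versus Con, and it was 1 for HS versus Con without both the second and the third Con-FMT libraries. It stayed at 0 in every setting for HS+A10 versus HS, A10 versus Con and the difference between the AOS effects. The cause of these shifts was not tested. Of 90 member and comparison pairs, 57 differed by at least 1 SE, and of these only Csf1r in A10-FMT versus Con-FMT changed sign (−0.45 to 0.012 with 1 library left out, above 0 without the second Con-FMT library). Of the 33 smaller ones 28 changed sign under some setting, and none was called under any. Replicate numbers were not treated as pairs in the main fit. Same-numbered deviations correlated at −0.126 to 0.262, above 0.1 in 12 of 45 pairs. Of 18 libraries 10 correlated best with their own number, and whether the numbers reflect a pairing was not settled. With a replicate block 6 members were called in A10-FMT versus HS and 4 in A10-FMT versus Con. Of the 10 genes most like the members, 9, 9 and 8 remained with a pseudocount of 0.1, median scaling and quantile normalization. The 2 fits without several libraries and both comparisons of recipients with Con were chosen after seeing the data.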
